A study of Mus musculus with 12 samples.

Results

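The genes described here encode 36 nuclear subunits of the mitochondrial respiratory complexes II, III and IV and of ATP synthase (complex V), of 15826 genes tested on the arrays. Members were taken by gene symbol from the probe annotation of the array, with current equivalents of the older Atp5 symbols, and not by any measured value. They comprise 4 subunits of complex II, 7 of complex III, 10 of complex IV and 15 of ATP synthase. All 36 passed the signal filter, and 35 were well above background on every array of both groups; the exception was Sdha, for which 0.75 of the DEHP channels passed. Gene expression was measured on 2-colour Agilent arrays in Leydig cells, the steroid-producing interstitial cells of the testis, collected from testis sections by laser-capture microdissection. The animals were male C57BL/6J mice, 21 weeks old. DEHP mice received the plastic softener di-(2-ethylhexyl) phthalate by daily gavage for 21 days, at a dose of 200 mg/kg each day dissolved in corn oil, and vehicle mice received the oil alone. The labels describe 4 mice per group; DEHP mice 1 and 4 and vehicle mice 1, 2 and 4 were analysed here, each as RNA of a single capture amplified over 2 rounds. The 12 arrays paired every DEHP mouse with every vehicle mouse, once with DEHP in Cy5 and once with DEHP in Cy3. The replicate is the mouse, so the groups hold 2 and 3 replicates, and p-values between the groups rest on the spread between these 5 animals. P-values between 2 mice rest on the spread between repeated arrays.

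Complex II, which is succinate dehydrogenase of the citric acid cycle, and complex III pass electrons by way of ubiquinone and cytochrome c to complex IV, where oxygen is reduced. Complexes III and IV pump protons across the inner membrane, complex II does not, and ATP synthase makes ATP from the returning protons. In Leydig cells the first step of steroid synthesis takes place at the inner mitochondrial membrane and needs energised mitochondria. All complex II subunits are encoded in the nucleus, whereas complexes III, IV and V combine nuclear subunits with subunits encoded in mitochondrial DNA, which are not among these genes.

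Promoters of genes for respiratory subunits are known for binding sites of the nuclear respiratory factors NRF1 and NRF2 (GABP, an ETS-family factor) and of YY1. RefSeq promoter windows on GRCm38.p6, from 250 bases before to 50 after the transcription start, were matched to 28 of the 36 members, without Atp5a1, Cox4i1, Cox6c, Cyc1, Sdhc, Uqcrb, Uqcrc2 and Uqcrq. The NRF1-type palindrome, GCGCA followed by any base and then GCGC, was found on either strand in the windows of 10 of these 28 members (35.7%), against 5.19% of the 27025 genes of any kind with a window of the same length. CCGGAAG (ETS core) occurred in 11 members (39.3%), against 9.93% of all genes. AAGATGGCG (YY1 core) occurred in 2 members, Atp5j and Atp5j2 (7.14%), against 1.64%. No match of one motif overlapped a match of another, 4 members (Sdhd, Cox6a1, Atp5h and Atp5k) held both an NRF1-type and an ETS match, and 10 held none of the 3. The following stretches are the 170 bases before the start, written 5′ to 3′ on the strand of the gene, with motif matches in capitals. They belong to the 3 genes of subunit c of ATP synthase, to Cox7b and Cox6a1, and to Sdha. Cox7b and Cox6a1 varied most among the mice in complex IV. Sdha varied least of all members in the processing used here.
Atp5g1 (chr11:96075632-96075801, minus strand): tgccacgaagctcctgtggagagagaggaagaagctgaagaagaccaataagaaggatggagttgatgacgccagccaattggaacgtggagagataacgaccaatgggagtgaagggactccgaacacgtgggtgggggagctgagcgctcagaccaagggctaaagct
Atp5g2 (chr15:102671048-102671217, minus strand): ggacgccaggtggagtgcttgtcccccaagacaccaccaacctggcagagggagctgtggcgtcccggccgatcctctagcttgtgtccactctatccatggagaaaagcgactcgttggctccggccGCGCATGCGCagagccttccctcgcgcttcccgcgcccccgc
Atp5g3 (chr2:73911327-73911496, minus strand): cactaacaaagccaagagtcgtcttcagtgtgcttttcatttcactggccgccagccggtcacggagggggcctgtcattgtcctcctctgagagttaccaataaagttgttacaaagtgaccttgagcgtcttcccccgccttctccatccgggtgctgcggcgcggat
Cox7b (chrX:106015530-106015699, plus strand): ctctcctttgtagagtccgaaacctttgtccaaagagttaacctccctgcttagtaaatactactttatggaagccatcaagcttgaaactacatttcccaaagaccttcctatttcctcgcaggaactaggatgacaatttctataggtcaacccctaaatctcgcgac
Cox6a1 (chr5:115348959-115349128, minus strand): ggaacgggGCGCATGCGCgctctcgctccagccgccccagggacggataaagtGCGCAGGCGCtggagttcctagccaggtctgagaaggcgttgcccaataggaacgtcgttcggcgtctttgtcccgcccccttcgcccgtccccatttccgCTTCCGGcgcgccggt
Sdha (chr13:74350241-74350410, minus strand): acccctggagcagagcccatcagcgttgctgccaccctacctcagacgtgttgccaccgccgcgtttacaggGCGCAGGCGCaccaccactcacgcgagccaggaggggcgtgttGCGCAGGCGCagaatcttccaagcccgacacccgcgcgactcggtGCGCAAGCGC
Cox6a1 carried 2 NRF1-type matches and 1 ETS match in this stretch, and Sdha 3 NRF1-type matches. Their values ranged over 1.76 and 0.17 log2 units among the mice. The narrow range of Sdha depends on the processing and probe, as described below, and a link of matches to range was not tested. Among members with a window, the range over the 5 mice had a median of 0.82 in the 10 with an NRF1-type match and of 0.71 in the 18 without one. These medians were 0.95 and 0.69 with and without an ETS match, and 0.60 and 0.82 with and without a YY1 match. A match is only a run of letters, and no binding was measured.

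Values below are mouse values on the log2 scale: for each gene, the level in each animal set against the average of all 5, from all arrays on which that mouse was hybridised. They were made after a loess normalisation, which sets the typical gene of each brightness to no change on each array, so a value states the level relative to genes of like brightness. Between 45.4% and 54.4% of red and between 35.5% and 46.1% of green probe spots per array were well above background, and no member spot was saturated. Of the 9 listed Leydig cell markers, all passed the signal filter. Their median was 0.74 in DEHP mouse 1 but -0.87 in DEHP mouse 4, and -0.60, 0.34 and 0.55 in vehicle mice 1, 2 and 4. All 10 spermatid markers were above background on every array, with medians of -0.00 and 0.83 in DEHP mice 1 and 4, against 0.26, -0.74 and -0.42 in vehicle mice 1, 2 and 4. Spermatid transcripts were thus measured in all captures, at levels that differed between mice of the same group. In such material fewer cells of a type and less RNA per cell cannot be told apart.

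The members' values spread widely within both groups. The range of a member over the 5 mice ran from 0.17 (Sdha) to 2.19 (Atp5g3) with a median of 0.82, against a median of 0.73 over all genes tested. This spread exceeded that between arrays of the same mice: the SD over the 5 mice had a median of 0.36, the residual SD over the 12 arrays one of 0.07, and the first was the larger for 35 of the 36 members. DEHP mouse 1 lay above 0 for 30 members and DEHP mouse 4 below 0 for 30. Vehicle mouse 1 lay below 0 for 23, vehicle mouse 2 below 0 for 19 and vehicle mouse 4 above 0 for 34. All arrays of vehicle mouse 4 lay on a slide of their own, so this mouse and its slide cannot be told apart.

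**Figure D1:**
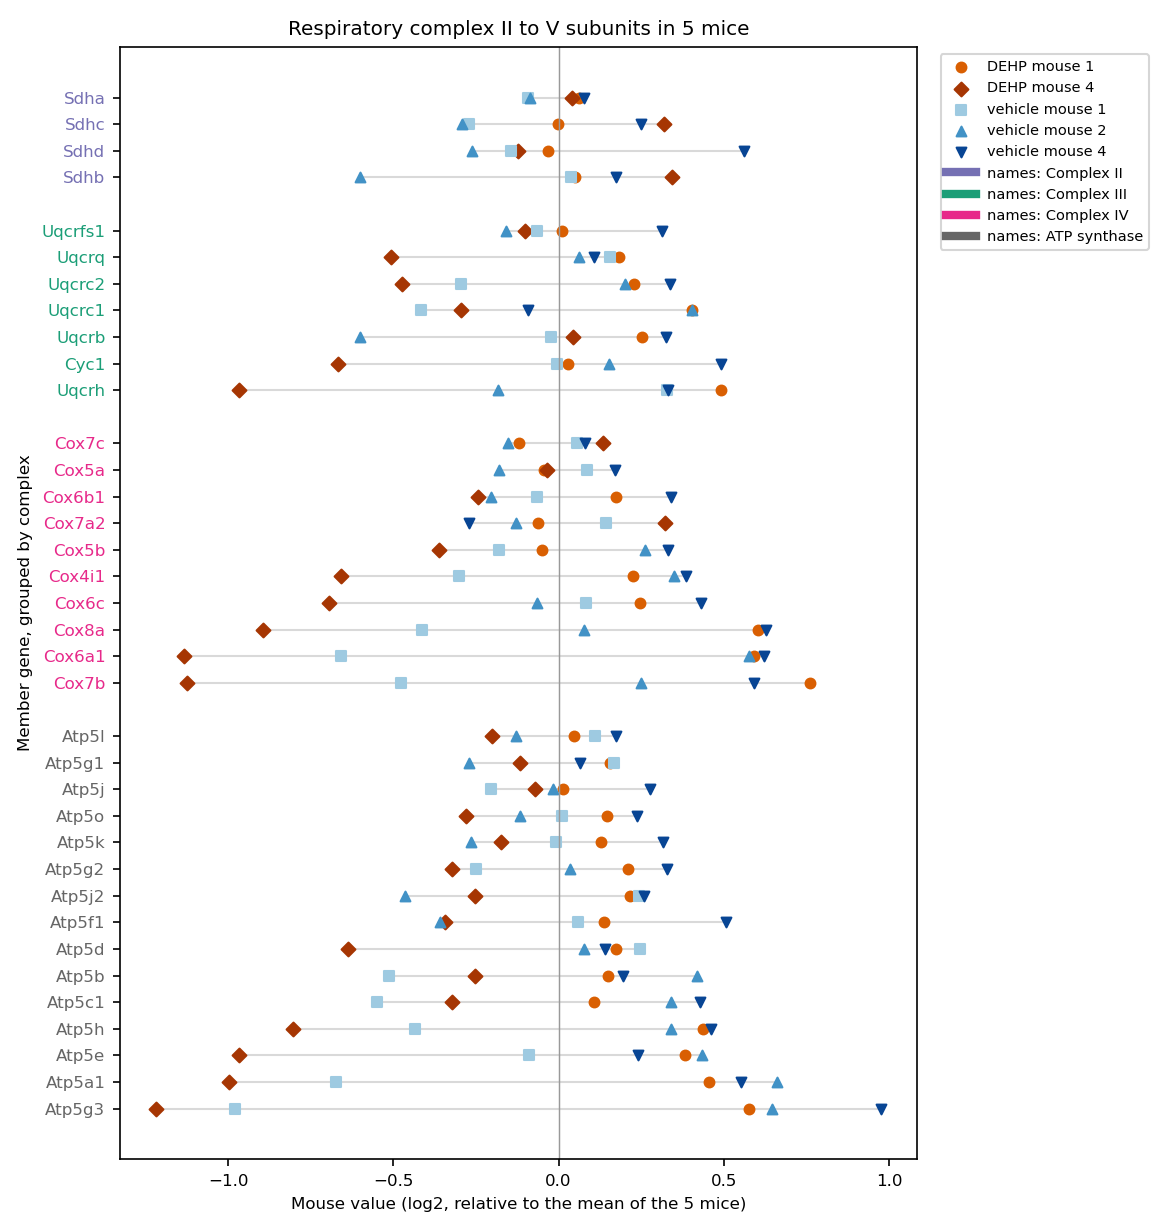
Value of each of the 36 member genes (vertical axis, grouped by complex and sorted by range) in the 5 mice (horizontal axis, log2 relative to the mean of the 5 mice); each symbol is 1 mouse and the grey line joins the lowest and highest. After loess, DEHP mouse 4 was the lowest mouse for 19 genes and vehicle mouse 4 the highest for 23. The range grew from 0.17 for Sdha to 2.19 for Atp5g3.

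The main comparison asked whether the subunit genes were higher or lower in Leydig cells of DEHP mice. No member passed the threshold: limma's adjusted p was 1 for each, 0 of 36 members were called, and 0% of all 15826 genes were. At an unadjusted p under 0.05, 0 members passed, against 0.859% of all genes. Nor did the groups separate for any member, since both DEHP mice lay on the same side of all 3 vehicle mice for 0 of 36, against 9.17% of all genes. The DEHP mean was the higher for 8 members and the lower for 28 (25 under median centring in place of loess), against 51.6% of all genes below 0. The spermatid markers lay on the other side, with a median difference of 0.67 and 9 of 10 above 0, and their part in this was not tested. The members' median difference, DEHP minus vehicle, was -0.13, against -0.01 over all genes. This median became -0.34 and 0.11 without DEHP mouse 1 or 4, and -0.23, -0.19 and 0.0021 without vehicle mouse 1, 2 or 4. It was 0.01, -0.07 and -0.37 on slides 1, 2 and 3 taken alone. Each of slides 1 and 2 holds 1 dye orientation. Slides 1 and 2 carry only vehicle mice 1 and 2, and slide 3 only vehicle mouse 4, so the slides compare against different vehicle mice. All 36 of the 95% intervals included 0, reaching a median of 0.74 log2 units to either side of the difference. Smaller differences were thus mostly not detectable with 5 mice, even before adjustment over all genes. Larger ones were not called after adjustment either: over all genes, differences reached -1.276 and 1.925 and 0% were called.

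**Figure D2:**
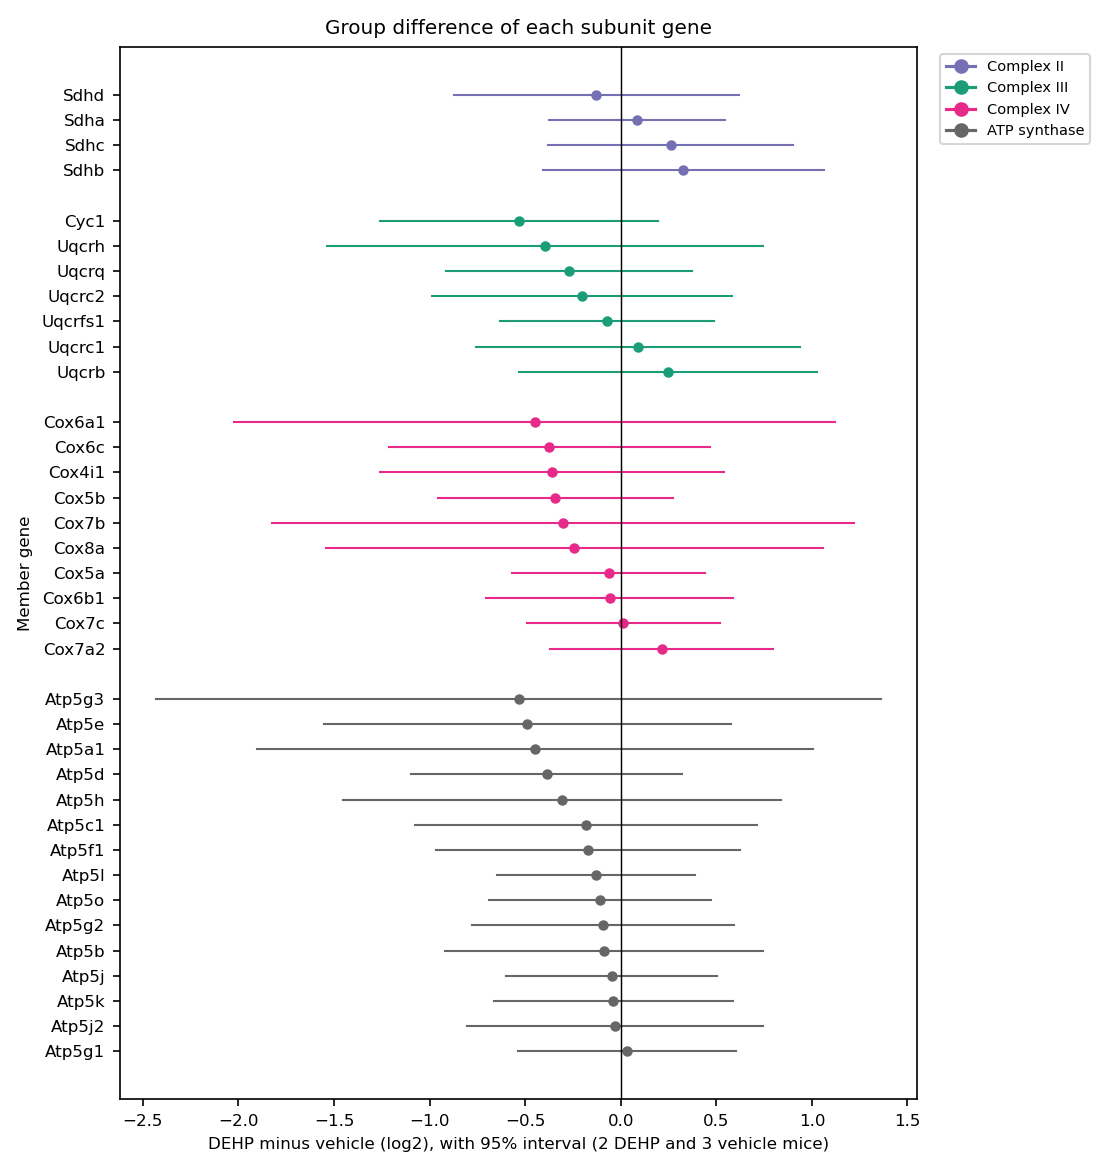
Difference between the group means, DEHP minus vehicle (horizontal axis, log2), for each member gene (vertical axis); points are differences and bars 95% intervals from limma over 2 DEHP and 3 vehicle mice. Every bar crosses 0, 28 points lie below 0 and 8 above (25 and 11 under median centring in place of loess), and the bars are widest for Atp5g3, Cox6a1 and Cox7b.

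In complex II, 3 of the 4 genes had the higher mean in DEHP mice, none past the threshold, with a median difference of 0.17. Sdhb, the iron-sulfur subunit that relays electrons from the flavin, had the lowest p. Its values were 0.05 and 0.34 in DEHP mice 1 and 4, against 0.04, -0.60 and 0.17 in vehicle mice 1, 2 and 4. Vehicle mouse 2 was low, the other 4 mice lay between 0.04 and 0.34, and the groups overlapped. The difference was 0.33 ± 0.30 (SE; limma, unadjusted p = 0.315), with a 95% interval from -0.41 to 1.06, and it was 0.091 without vehicle mouse 2. Sdhc (0.26) and Sdhd (-0.13), the membrane anchors that hold ubiquinone, differed by less than the range among the vehicle mice. Sdha, the flavoprotein that oxidises succinate, had the narrowest range of the members after loess: all mice lay between -0.09 and 0.08. It was also the member not above background on every array, and its SD over the 5 mice (0.08) was below its residual SD (0.14). With the scanner's processed signals in place of loess, vehicle mouse 1 minus vehicle mouse 4 was -0.82, against -0.17 after loess. The narrow range of Sdha therefore depends on the processing. After loess, DEHP mouse 4 was the lowest mouse for 0 of the 4 genes of complex II. The counts were 4 of 7 in complex III, 7 of 10 in complex IV and 8 of 15 in ATP synthase. They were not made under median centring, where 20 members were called higher in DEHP mouse 4 than in DEHP mouse 1 and 6 lower.

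Complex III had 5 genes below 0 and 2 above, with a median difference of -0.20. Cyc1, which encodes cytochrome c1, the haem subunit that hands electrons to cytochrome c, had the lowest p of all 36 members. Its values were 0.03 and -0.67 in DEHP mice 1 and 4, against 0.00, 0.15 and 0.49 in vehicle mice 1, 2 and 4. DEHP mouse 4 was low, while DEHP mouse 1 lay between vehicle mice 1 and 2. Cyc1 differed by -0.53 ± 0.29 (SE; unadjusted p = 0.122, adjusted p = 1, limma), and by -0.18 with DEHP mouse 4 left out; its group difference had the same sign with each of the 5 mice left out. The small accessory subunits did not move one way: Uqcrh, the hinge protein beside cytochrome c1, differed by -0.40, Uqcrq by -0.27 and Uqcrb by 0.25. Uqcrc1 and Uqcrc2, the core proteins on the matrix side, differed by 0.09 and -0.20, and Uqcrfs1, the Rieske iron-sulfur protein, by -0.07.

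Complex IV, cytochrome c oxidase, had 8 genes below 0 and 2 above, with a median difference of -0.27; Cox5a turned to 0.09 under median centring. The nuclear genes encode small subunits around a catalytic core made in the mitochondrion. Cox5b, which sits on the matrix side, had the lowest p. It measured -0.05 and -0.36 in DEHP mice 1 and 4, against -0.18, 0.26 and 0.33 in vehicle mice 1, 2 and 4. Vehicle mouse 1 lay between both DEHP mice, so the groups overlapped, and the difference was -0.34 ± 0.25 (SE; limma, unadjusted p = 0.218). With 1 mouse left out the difference of Cox5b lay between -0.50 and -0.19. Cox4i1, the largest nuclear subunit, differed by -0.36, Cox6a1 by -0.45, Cox6c by -0.37 and Cox8a by -0.24. Cox5a (-0.06), Cox6b1 (-0.06), Cox7c (0.01) and Cox7a2 (0.21) made up the rest, apart from Cox7b.

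Cox7b, a small transmembrane subunit, had the largest distance between the DEHP mice of any member. It measured 0.76 in DEHP mouse 1 but -1.12 in DEHP mouse 4, and -0.48, 0.25 and 0.59 in vehicle mice 1, 2 and 4. The DEHP mice held the highest and the lowest of all 5 values, and the vehicle mice lay between them. The group difference was -0.30 ± 0.61 (SE), while DEHP mouse 4 minus DEHP mouse 1 was -1.88. On single arrays, Cox7b in DEHP mouse 1 over vehicle mouse 1 gave log2 ratios of 1.29 with DEHP in Cy5 and 1.24 with DEHP in Cy3. In DEHP mouse 4 over vehicle mouse 4 they were -1.60 and -1.78. The orientations gave like values, and over the 6 pairs of mice they had the same sign for 24 to 34 of the 36 members.

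In ATP synthase, 14 of 15 genes were below 0, with a median difference of -0.13; Atp5b turned to 0.05 and Atp5j to 0.12 under median centring. The catalytic F1 head is built from Atp5a1 (alpha), Atp5b (beta), Atp5c1 (gamma), Atp5d (delta) and Atp5e (epsilon), which differed by -0.45, -0.09, -0.18, -0.39 and -0.49. Atp5d, part of the rotating stalk, had the lowest p of the complex. Its values were 0.17 and -0.64 in DEHP mice 1 and 4, against 0.25, 0.08 and 0.14 in vehicle mice 1, 2 and 4. DEHP mouse 4 alone stood apart, and DEHP mouse 1 lay within the vehicle mice. The difference was -0.39 ± 0.29 (SE; limma, unadjusted p = 0.227), and 0.02 with DEHP mouse 4 left out. Genes of the peripheral stalk, which keeps the head from turning, differed by -0.31 (Atp5h, subunit d), -0.17 (Atp5f1, subunit b), -0.11 (Atp5o, the oligomycin sensitivity protein) and -0.05 (Atp5j, F6). The small membrane subunits Atp5l (-0.13), Atp5k (-0.04) and Atp5j2 (-0.03) were within 0.13 of 0.

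Subunit c, the proton-carrying ring of the membrane sector, is encoded by 3 genes that yield the same mature protein with different import sequences. Their promoter stretches, printed above, differ in their matches: Atp5g2 had an NRF1-type match before the start, Atp5g3 had one only after it, and Atp5g1 had none. Atp5g1 measured 0.16 and -0.12 in DEHP mice 1 and 4, against 0.17, -0.27 and 0.07 in vehicle mice 1, 2 and 4, a range of 0.44. Atp5g2 measured 0.21 and -0.32 in the DEHP mice and -0.25, 0.03 and 0.33 in the vehicle mice, a range of 0.65. Atp5g3 measured 0.58 and -1.22 in the DEHP mice and -0.98, 0.65 and 0.98 in the vehicle mice, the widest range of any member at 2.19. Atp5g3 was low in DEHP mouse 4 and vehicle mouse 1 and high in the other 3 mice, whereas the lowest mouse for Atp5g1 was vehicle mouse 2. The groups overlapped for all 3 genes. Differences were 0.03 ± 0.23 for Atp5g1, -0.09 ± 0.28 for Atp5g2 and -0.53 ± 0.77 (SE) for Atp5g3, whose 95% interval reached from -2.43 to 1.36. The 60-base probes of these paralogs share no run of over 8 bases.

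**Figure D3:**
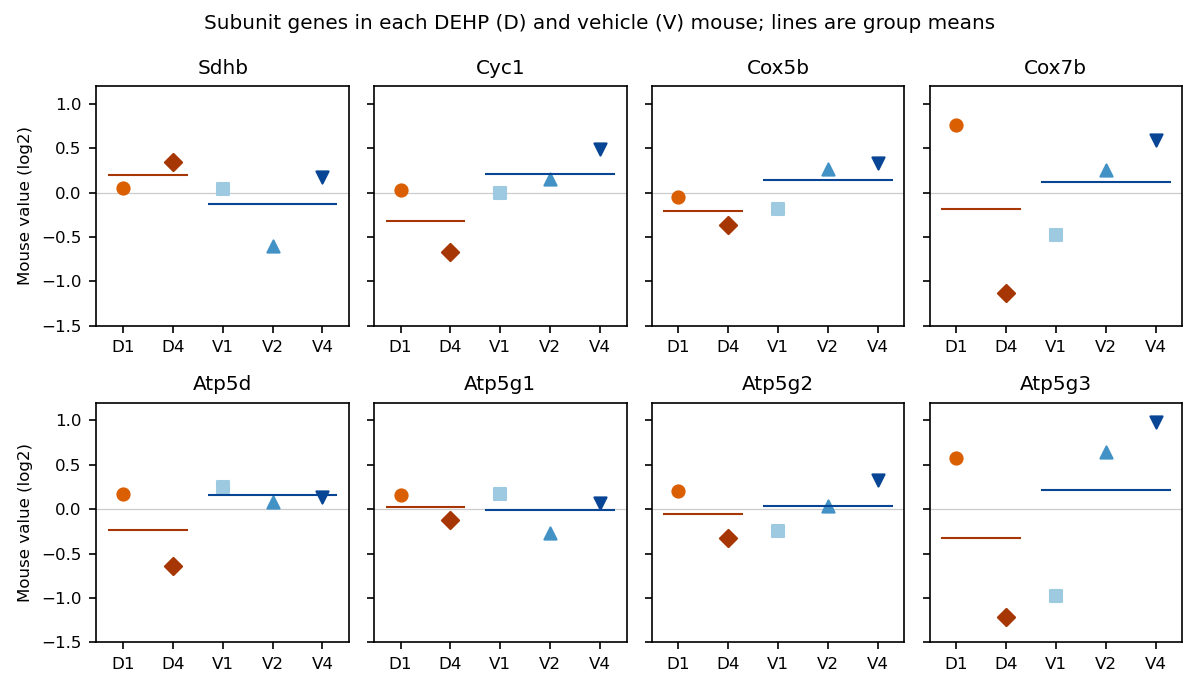
Mouse values (vertical axis, log2 relative to the mean of the 5 mice) of 8 subunit genes in DEHP mice 1 and 4 (D1, D4) and vehicle mice 1, 2 and 4 (V1, V2, V4); symbols are mice and horizontal lines group means. The lines of the groups lie closer together than the mice within a group for Cox7b and Atp5g3, and Atp5g1 and Atp5g2 vary much less than Atp5g3.

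Probes of these genes lie, on the mm7 assembly of the array's annotation, at chr4:140345040-140349607 for Sdhb (plus strand) and chr15:76428061-76428120 for Cyc1 (plus strand). In complex IV they lie at chr1:36934643-36934702 for Cox5b (plus strand) and chrX:101349174-101349233 for Cox7b (plus strand). For ATP synthase the positions are chr10:79926336-79926395 for Atp5d (plus strand) and chr11:96182649-96182708 for Atp5g1 (minus strand). The probe of Atp5g2 lies at chr15:102649170-102649229 and that of Atp5g3 at chr2:73752178-73752237, both on the minus strand. Whether a probe lies in coding sequence or in a UTR was not analysed here. The Sdhb interval is longer than the 60-base probe itself.

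For 30 of the 36 members the DEHP mice lay farther apart than the group means did. DEHP mouse 4 was the lower for 28 members and the higher for 4 (limma on the 12 arrays, adjusted p under 0.05), where 41.1% of all genes were called lower, 36.3% higher and 77.4% either way, but with median centring in place of loess 6 members were lower and 20 higher. Such tests compare RNA extracts through repeated arrays, not treatments. After loess the members' median was -0.45 and that of all genes -0.05. After median centring, which leaves trends with brightness in place, these medians were 0.32 and 0.30. Most members are bright: 30 had a mean log2 intensity of at least 10, as had 4190 genes in all. Among these bright genes the median-centred difference had a median of 0.75, and 24 of the 30 members lay below it, with a median of 0.37.

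Uqcrh, Cox6a1, Cox7b, Cox8a, Atp5a1 and Atp5g3 were called lower in DEHP mouse 4 under both scalings. The difference of Cox7b was -1.88 after loess (limma, adjusted p = 3.61e-11) and -1.10 after median centring (adjusted p = 6.91e-10). That of Atp5g3 was -1.79 (adjusted p = 6.01e-11) and -0.66 (adjusted p = 1.41e-05). Sdhb, Sdhc, Cox7a2 and Cox7c were called higher under both, Cox7a2 by 0.38 after loess and by 1.56 after median centring. A further 12 members were called in opposite directions by the 2 scalings, among them Atp5b (-0.40 and 0.77) and Uqcrc1 (-0.70 and 0.38). Cox7b was the lowest and Cox7a2 the highest member under either scaling, but the order and signs of members between them were not kept. Cox5a and Atp5j rose from 0.01 and -0.08 after loess to 1.25 and 1.18 after median centring. Atp5e and Atp5h moved from -1.35 and -1.24 to -0.16 and -0.07, where they were not called.

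**Figure D4:**
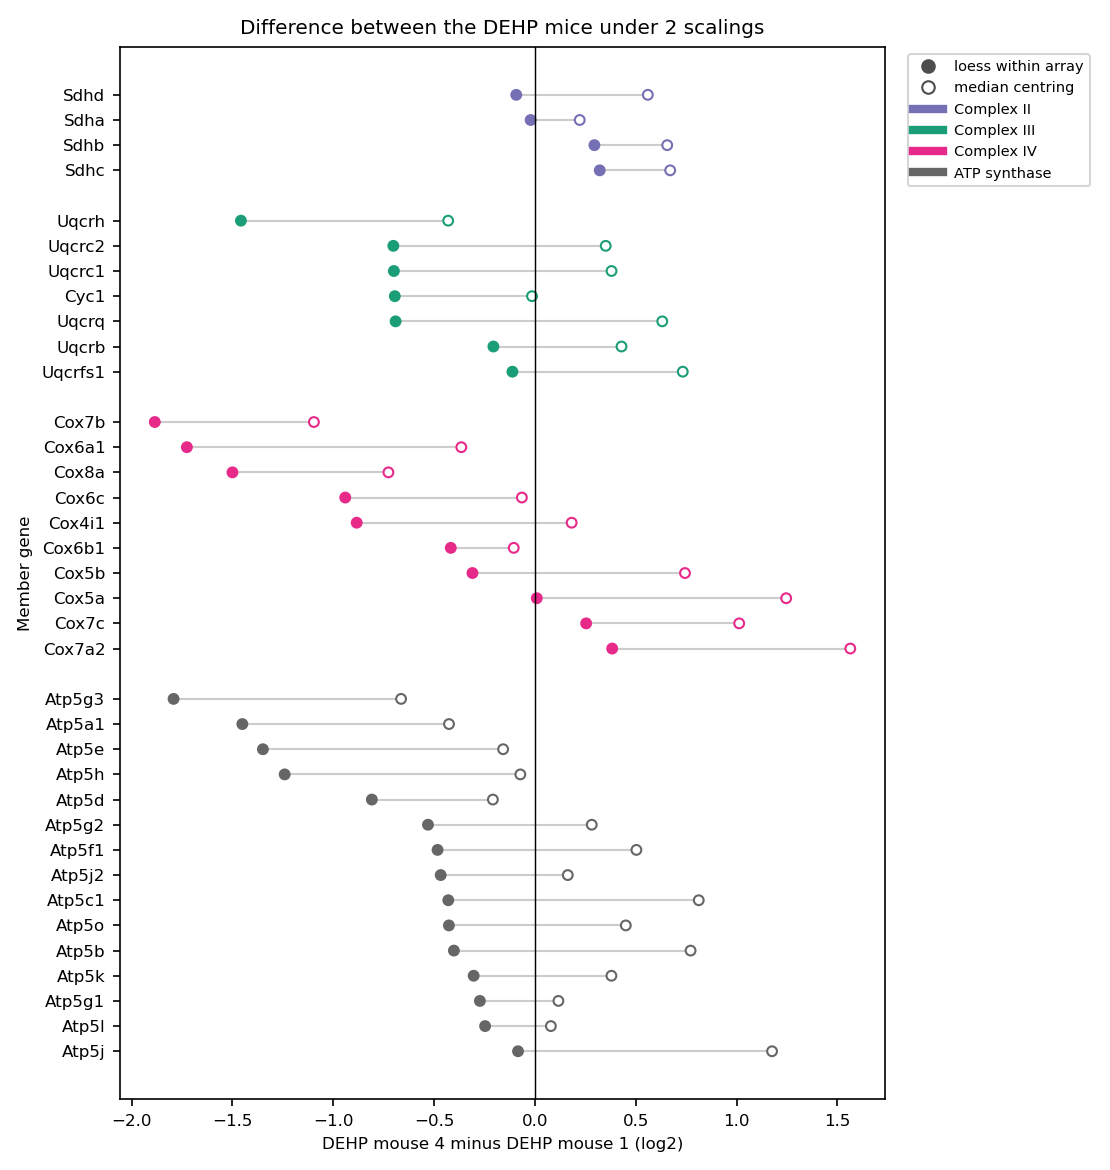
Difference between the DEHP mice, mouse 4 minus mouse 1 (horizontal axis, log2), for each member (vertical axis, coloured by complex), after loess within each array (filled) and after median centring (open); grey lines join the values of a gene. After loess 28 members were called lower and 4 higher, after median centring 6 lower and 20 higher, and Cox7b is the lowest and Cox7a2 the highest under both.

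The vehicle mice differed among themselves as well. Between vehicle mice 1 and 2, 15 members were higher in mouse 1 and 15 lower (background 33% and 38%, 71% either way). With median centring these counts were 15 and 5. Against vehicle mouse 4, vehicle mouse 1 was higher for 1 member and lower for 25 (background 33.5% and 35.3%, 68.8% either way), and median centring gave 1 and 27. Vehicle mouse 2 against vehicle mouse 4 gave 4 higher and 24 lower (background 29.1% and 28.3%, 57.4% either way), and 0 and 32 with median centring. Against vehicle mouse 4, 23 members were called lower under both scalings in vehicle mouse 1 and 24 in vehicle mouse 2, while median centring moved the median of all genes to -0.15 and -0.19. Atp5g3 had the largest of these differences, with vehicle mouse 1 minus vehicle mouse 4 at -1.96 (limma, adjusted p = 4.71e-10).

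Markers of the cell types in the captures also differed within the groups. After loess, DEHP mouse 4 and vehicle mouse 1 both lay below the other 3 mice for 16 of 36 members, against 29.3% of all genes. This was so for 8 of the 9 Leydig cell markers, and by complex for 0 of 4, 3 of 7, 5 of 10 and 8 of 15 genes in complexes II, III, IV and V. The pattern was not particular to Leydig cell markers: 5 of 6 endothelial, 5 of 7 macrophage and 3 of 6 myoid markers had it. Of the Sertoli, spermatid and spermatocyte markers, 1 of 8, 0 of 10 and 0 of 7 had it. DEHP mouse 4 was the lowest mouse for 19 members (background 29.9%), and vehicle mouse 4 the highest for 23 (background 19.8%). None of these counts of mouse order was made under median centring. Insl3, the peptide hormone of Leydig cells, measured 0.91 and -1.29 in DEHP mice 1 and 4, against -1.02, 0.50 and 0.90 in vehicle mice 1, 2 and 4, low in the same mice as Atp5g3. Between the DEHP mice all 9 Leydig cell markers were called lower in mouse 4 under both scalings, with medians of -1.54 and -0.87, and all 10 spermatid markers higher, with medians of 0.93 and 1.91. Macrophage markers (7 of 7 measured) had medians of 0.40, -0.24, -0.39, -0.04 and 0.44 in DEHP mice 1 and 4 and vehicle mice 1, 2 and 4. Myoid markers (6 of 6) had 0.00, -0.68, -0.21, 0.70 and 0.18, and endothelial markers (6 of 6) 0.25, -0.40, -0.60, 0.44 and 0.16, in the same order. Sertoli markers (8 of 9, without Gata1, which did not pass the filter) had -0.20, -0.12, 0.18, 0.05 and 0.05, and spermatocyte markers (7 of 7) -0.10, 0.17, 0.34, -0.13 and -0.05. Between the groups, DEHP minus vehicle, the groups did not overlap for 2 of the 10 spermatid and 2 of the 8 Sertoli markers. The same held for 1 of 7 spermatocyte and 1 of 7 macrophage markers, and for 0 Leydig cell, myoid and endothelial markers. The share over all genes was the 9.17% given above. Median differences were -0.48 for myoid markers (5 of 6 below 0) and -0.31 for Sertoli markers (7 of 8 below 0). The same medians were -0.20 for Leydig cell markers (7 of 9 below 0), -0.17 for endothelial markers (5 of 6 below 0), -0.06 for spermatocyte markers and 0.06 for macrophage markers, with 0 genes called in any of these lists. The part of cell content in the members' values was not tested.

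**Figure D5:**
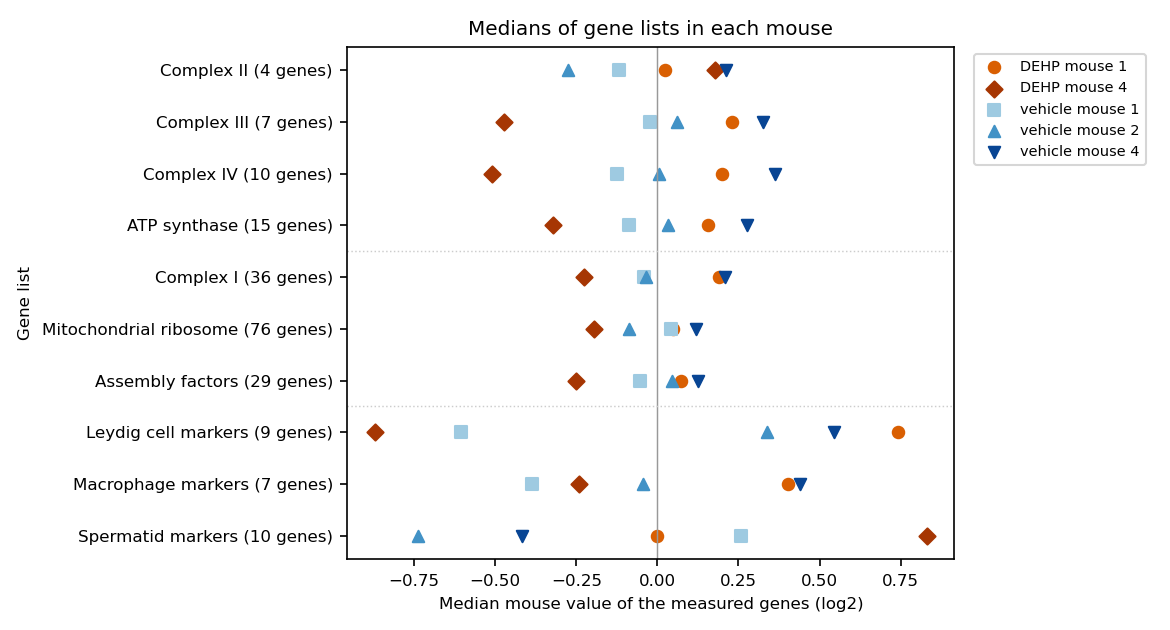
Median mouse value (horizontal axis, log2) of the measured genes of each list (vertical axis, number of genes in brackets); each symbol is 1 mouse. After loess DEHP mouse 4 is lowest for complexes III and IV and ATP synthase (-0.47, -0.51 and -0.32) but not for complex II (0.18). Under median centring DEHP mouse 4 minus DEHP mouse 1 had medians of 0.61, 0.38, 0.06 and 0.16 in complexes II, III, IV and V. Leydig cell and spermatid markers spread more widely than any complex after loess.

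For comparison, other mitochondrial genes were described by the same counts. Of 36 measured complex I genes, the NADH-oxidising entry to the chain, 25 were below 0 in DEHP minus vehicle, with a median of -0.11 and 0 called (22 below 0 under median centring). Ndufb4 (-0.53) and Ndufb8 (-0.54), both membrane-arm subunits, had the lowest p of this list. Of 76 genes of the mitochondrial ribosome, which translates the subunits encoded in mitochondrial DNA, 58 were below 0, with a median of -0.14 and 0 called (55 below 0 under median centring). Mrps25 (-0.58, unadjusted p = 0.0435 in limma) and Mrpl11 (-0.40) had the lowest p there. Between the DEHP mice after loess, mouse 4 was called lower for 29 complex I genes and higher for 3, against 28 and 4 members. Of the ribosome genes, 47 were lower and 13 higher. After loess, DEHP mouse 4 was the lowest mouse for 55.6% of complex I, 46.1% of ribosome genes and 52.8% of members. DEHP mouse 4 and vehicle mouse 1 lay below the other 3 mice for 41.7%, 26.3% and 44.4%, in the same order. Vehicle mouse 4 was the highest for 44.4%, 38.2% and 63.9%. These shares were not made under median centring. No test of a difference between these lists and the members was made.

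Several members carried more than 1 probe, and the probes did not always follow one another. Atp5b had 3 probes that passed the filter, of which the brightest represents it above. A second probe, above background on all arrays, measured 0.06 and 1.07 in DEHP mice 1 and 4, against -0.35, -0.87 and 0.09 in vehicle mice 1, 2 and 4. This second probe was highest in DEHP mouse 4 and lowest in vehicle mouse 2, and its group difference was 0.94, against -0.09 for the probe used. Atp5f1 showed the same split: a second probe measured -0.48 and 0.86 in the DEHP mice and 0.51, -0.52 and -0.37 in the vehicle mice, a group difference of 0.32 against -0.17 for the probe used. For Atp5a1, Atp5h, Uqcrh, Cox7a2 and Atp5g2 the second probe had the sign of the first with a smaller difference. The second probe of Sdha, above background on a share of 0.35 of arrays, had a group difference of 0.02 against 0.08. It ran from -0.15 in vehicle mouse 1 to 0.21 in vehicle mouse 4, wider than the probe used. The second probe of Uqcrc1, above background on all arrays, had a larger group difference (0.19 against 0.09). Its DEHP mouse 4 minus DEHP mouse 1 was 0.01, against -0.70 for the probe used. The group direction given for Atp5b and Atp5f1, and the difference of Uqcrc1 between the DEHP mice, therefore rest on the choice of probe. These second probes were singled out after their values were seen, and what they hybridise to was not tested.

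Of 10 listed tissue isoforms and cytochromes c, 8 were measured, 2 above 0 and 6 below, and 0 passed the threshold. Cox7a2l had the lowest p. It measured 0.19 and 1.01 in DEHP mice 1 and 4, against 0.37, -0.63 and -0.94 in vehicle mice 1, 2 and 4. Vehicle mouse 1 lay between the DEHP mice, and the difference was 1.00 ± 0.47 (SE; limma, unadjusted p = 0.0788, adjusted p = 1). Cox7a1, the heart and muscle isoform, differed by -0.54 and Cox6a2, also of heart and muscle, by -0.02. The testis isoforms Cox6b2, Cox7b2 and Cox8c differed by -0.02, 0.11 and -0.13, the last turning to 0.02 under median centring. Cyct, the testis cytochrome c, differed by -0.10 and Cycs, the somatic one, by -0.47. Cyct was the higher in DEHP mouse 4 and Cycs the higher in DEHP mouse 1, with Cyct at -0.28 and 0.17 and Cycs at 0.13 and -0.69 in DEHP mice 1 and 4. Cox4i2 and Cox8b did not pass the signal filter.

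The other subunits were measured for 4 of 5 listed genes, and all 4 were below 0 under both scalings with 0 called. Atpif1, which inhibits ATP hydrolysis by the synthase, differed by -0.46, Uqcr11 of complex III by -0.53, Uqcr10 of the same complex by -0.41 and Ndufa4, a subunit of complex IV, by -0.28. Among assembly factors, 12 of 29 measured genes were above 0 and 17 below (10 and 19 under median centring), with a median of -0.09 and 0 called. The groups did not overlap for 4 of the 29, against the 9.17% of all genes given above. Cox20, a chaperone of the mitochondrially encoded subunit COX2, differed by -0.42 and Atpaf1, which assists assembly of the F1 head, by -0.36. Of 10 measured regulators, 8 were below 0 (7 under median centring) and 0 called. The groups did not overlap for 1 of the 10, near the 9.17% of all genes. Pprc1, a coactivator of nuclear respiratory factors, measured -0.18 and -0.34 in DEHP mice 1 and 4, against 0.06, 0.19 and 0.26 in vehicle mice 1, 2 and 4. Both DEHP mice lay below all vehicle mice, and the difference was -0.43 ± 0.19 (SE; limma, unadjusted p = 0.0687, adjusted p = 1). Gabpa, the DNA-binding subunit of NRF2, differed by -0.40 with overlapping groups. Nrf1 and Gabpb1 did not pass the signal filter.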

How the data were processed

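RNA of laser-captured Leydig cells from 5 mice was hybridised to 12 arrays on 3 slides of 4. The deposited scanner files give an intensity for each spot and channel, not normalized between arrays (Feature Extraction, version 9.5.1.1, per the file headers). Their log10 ratio served only to check directions, and the deposited flags, 0 or 1, say which spots were saturated, outlying or well above background. The deposited value table holds the authors' log2 ratios; its filter and normalization are not given in the sources used here. Its columns, all DEHP over vehicle, correlated with the scanner ratios at 0.915 to 0.993, with medians from -0.06 to 0.00. The submitters' processing notes name limma.

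Here limma 3.58.1 under R 4.3.3 was used to correct the background (normexp, offset 50) and to normalize each array (loess, control spots at weight 0). Control and outlier spots were left out and the spots of a probe averaged. Least squares gave 5 mouse values and a dye effect per probe. A probe was kept if 2 or more mice had it well above background on 0.5 or more of their arrays (21186 of 41174), with the brightest probe per gene. For the groups, lmFit and eBayes were run on these mouse values, with 3 residual degrees of freedom, and for pairs of mice on the 12 arrays, with Benjamini-Hochberg adjustment over all genes at 0.05. The functions were tested on simulated data.

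Genes were named by RefSeq accession (10546 of 15826) or symbol. Members and lists were chosen with earlier results of these data known. Values in every mouse are given for the lowest p in each complex, the subunit c genes and the largest differences between the DEHP mice; of other lists, the 2 of lowest p and each measured isoform are named. Alternatives covered background, scaling, filter, probes, slide, left-out mice, the replicate block and the value table.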

Additional observations from a re-analysis of the deposited data

How the results depend on the processing

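No gene and no member was called between DEHP and vehicle under the background, scaling, filter, probe, slide-block, replicate-block, left-out-mouse and value-table alternatives (single slides had no test), and the members' median difference lay between -0.16 and -0.08 over the scaling, filter and probe alternatives. The number of members called between mice of a group stayed within 1.5 times its value under the background, scaling, filter, probe and slide-block alternatives, the ones run for it, but median centring turned most directions between the DEHP mice, from 28 lower and 4 higher to 6 and 20, and the split between vehicle mice 1 and 2 from 15 and 15 to 15 higher and 5 lower. Of 348 member differences under alternatives other than single slides and left-out mice, 11 turned. Many of the 348 only repeat the main fit, so this share does not measure robustness. Quantile scaling of the brightness after loess, both filter alternatives and the slide block left the difference of every measured member unchanged. With median centring Cox5a turned to 0.093, Atp5b to 0.054 and Atp5j to 0.12. The mean of all probes turned Atp5b to 0.27 and Atp5f1 to 0.071. With the authors' value table (25 members, 10694 genes, median -0.06) Atp5b turned to 1.12 and Atp5f1 to 0.34. With a replicate block for the mouse number, which leaves vehicle mouse 2 without a partner, the median was -0.19. Uqcrb turned to -0.0041, Cox7c to -0.061, Atp5b to 0.11 and Atp5g1 to -0.10. Without a partner vehicle mouse 2 adds nothing to the difference, so this block gives the same differences as leaving that mouse out. The deviations of mice 1 and 4 in both groups correlated at -0.73 across 15826 genes, which are not independent; with 2 pairs this does not settle whether the numbers pair the mice, and the labels name no shared litter or day. On slides 1, 2 and 3 alone, 10, 11 and 5 of 36 members had the other sign, with no test. Slides 1 and 2 carry only vehicle mice 1 and 2, and slide 3 only vehicle mouse 4. Leaving out 1 mouse turned 40 of 180 member differences, in 29 members: 2 without DEHP mouse 1, 22 without DEHP mouse 4, and 2, 4 and 10 without vehicle mice 1, 2 and 4; the median ranged from -0.34 to 0.11. The lowest and highest differences with 1 mouse left out were Sdhd -0.28 to 0.13, Uqcrc1 -0.26 to 0.44, Uqcrc2 -0.55 to 0.15, Uqcrb -0.0041 to 0.46, Uqcrq -0.62 to 0.075, Uqcrh -1.13 to 0.33, Uqcrfs1 -0.17 to 0.068, Cox4i1 -0.80 to 0.081, Cox5a -0.17 to 0.0083 and Cox6a1 -1.31 to 0.41. For the next members they were Cox6b1 -0.27 to 0.15, Cox6c -0.84 to 0.10, Cox7b -1.25 to 0.64, Cox7c -0.11 to 0.14, Cox8a -0.99 to 0.51, Atp5a1 -1.18 to 0.28, Atp5b -0.36 to 0.12, Atp5c1 -0.49 to 0.034, Atp5d -0.79 to 0.018 and Atp5e -1.16 to 0.19. For the last they were Atp5f1 -0.41 to 0.070, Atp5g1 -0.11 to 0.17, Atp5g2 -0.36 to 0.17, Atp5g3 -1.43 to 0.36, Atp5h -0.93 to 0.31, Atp5j -0.16 to 0.082, Atp5j2 -0.27 to 0.20, Atp5k -0.19 to 0.11 and Atp5o -0.32 to 0.10. The planned dye effect for each slide was not run, because it cannot be estimated where a slide holds 1 orientation; a slide block chosen after seeing the data gave a median of -0.13. The causes of these changes were not tested. Of the members, 35 of 36 were above background on all arrays.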
